A study of Mus musculus with 6 samples.

Results

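Class 3 semaphorins are secreted guidance cues, and the genes described here are 6 of these ligands (Sema3a, Sema3b, Sema3c, Sema3d, Sema3e and Sema3f), both neuropilins (Nrp1 and Nrp2) and the A plexins Plxna1 and Plxna3. They were chosen by gene name, with earlier results of these data known, and make up 10 of 21572 gene symbols in the tables. Of these genes, 9 had an entry of their own, and Nrp1 was found in 1 joined entry with the microRNA gene Mir1903, so its values are those of the joined entry. RNA of the soleus, a hindlimb muscle, was sequenced from adult C57BL/6 mice in 6 libraries that formed 3 groups of 2. These were soleus of mice labelled Dach2-/-/Hdac9-/- (double knockout, DKO), denervated, wild-type (WT) soleus 3 days after its nerve supply was removed, and innervated WT soleus. Dach2 encodes a transcriptional co-factor and Hdac9 a histone deacetylase. The time is stated for the denervated WT muscle and was read as holding for the DKO-labelled muscle too. Whether the 2 libraries of a group came from separate animals is not stated, so the p-values measure the spread between libraries, which may be technical. Innervated DKO muscle was not analysed here, so a change on denervation cannot be compared between genotypes.

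In the nervous system class 3 semaphorins steer and mostly repel growing axons. A neuropilin binds the secreted ligand and an A plexin passes the signal into the cell, where it acts on small GTPases, kinases and the cytoskeleton. Sema3a acts mainly through Nrp1 and Sema3f mainly through Nrp2, Sema3b and Sema3c can use both, and Sema3e can bind Plxnd1 without a neuropilin. Neuropilins also bind vascular endothelial growth factors (VEGFs) on blood vessels. In muscle Sema3a is known from terminal Schwann cells and from satellite cells after injury.

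The libraries held 25529434 to 46305449 fragments assigned to genes. Levels are given as the authors' FPKM (fragments per kilobase of transcript, scaled by a factor of each library), which allows levels of different genes to be set side by side. Changes are on the log2 scale with their SE, tested on the fragment counts by quasi-likelihood in edgeR over 12247 genes with a mean FPKM of at least 0.5. Genes with a p under 0.05 after Benjamini-Hochberg adjustment were called. For denervated over innervated WT muscle 1759 genes were called higher and 1753 lower. Without innervated WT replicate 1 these counts were 177 and 291, without innervated WT replicate 2 they were 83 and 119, and without denervated WT replicate 1 they were 2610 and 2747. Scaling by library totals alone gave 3331 higher and 1144 lower and moved the median change of all genes to 0.27, against 0.00 with TMM scaling. For denervated DKO-labelled over denervated WT muscle 5 genes were called. That count was 119 without denervated WT replicate 1, 14 without denervated WT replicate 2, 1 without DKO-labelled replicate 1, and 0 without DKO-labelled replicate 2 or either innervated WT library. Denervated WT replicate 2 stood apart from the other libraries, at 43.3 on the second principal component (13% of the variance), where the others lay between -27.9 and 8.82. The muscle fibre genes Mb and Ckm had the highest means among the fibre markers, 6870 and 5170 FPKM over all libraries, while Acta1, which every skeletal muscle expresses, was listed at 0 in all 6. Whole-gene counts of Dach2 and Hdac9 do not test the labelled deletions: Dach2 had 0.961 and 0.681 FPKM in DKO-labelled, 0.519 and 0.536 in denervated WT and 3.85 and 4.29 in innervated WT muscle, and Hdac9 had 0.534 and 0.181, 1.83 and 0.285, and 4.1 and 3.14 FPKM in the same groups.

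After denervation the muscle carried more transcript of the ligands Sema3b and Sema3f and of the receptor Plxna1, and less of the receptor Nrp1. All of these changes were found against innervated WT muscle in both denervated groups, and none of the 10 genes was called between the denervated genotypes. The calls of Sema3b and Sema3f held under every alternative tried, while those of Plxna1 and Nrp1 were lost under some, as given below. Of the 10 genes, 6 passed the filter on low values (Sema3b, Sema3c, Sema3f, Nrp1, Nrp2 and Plxna1). For denervated over innervated WT muscle 3 of these 6 were called higher, where 14.4% of all tested genes were, and 1 was called lower, where 14.3% of all tested genes were. Their median change was 0.58, against 0.00 for all tested genes. The genes were chosen with earlier results of these data known, so these counts are a description only. For DKO-labelled over innervated WT muscle the same counts were 3 higher, beside 15.2% of all tested genes, and 1 lower, beside 16.2%, with a median of 0.73. The innervated libraries are shared by these comparisons. For DKO-labelled over denervated WT muscle 0 of 6 were called in edgeR, DESeq2 or limma, beside 0.0408% of all tested genes in edgeR, and 1 (Sema3f) had an unadjusted p under 0.05, as did 748 of all tested genes.

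**Figure D1:**
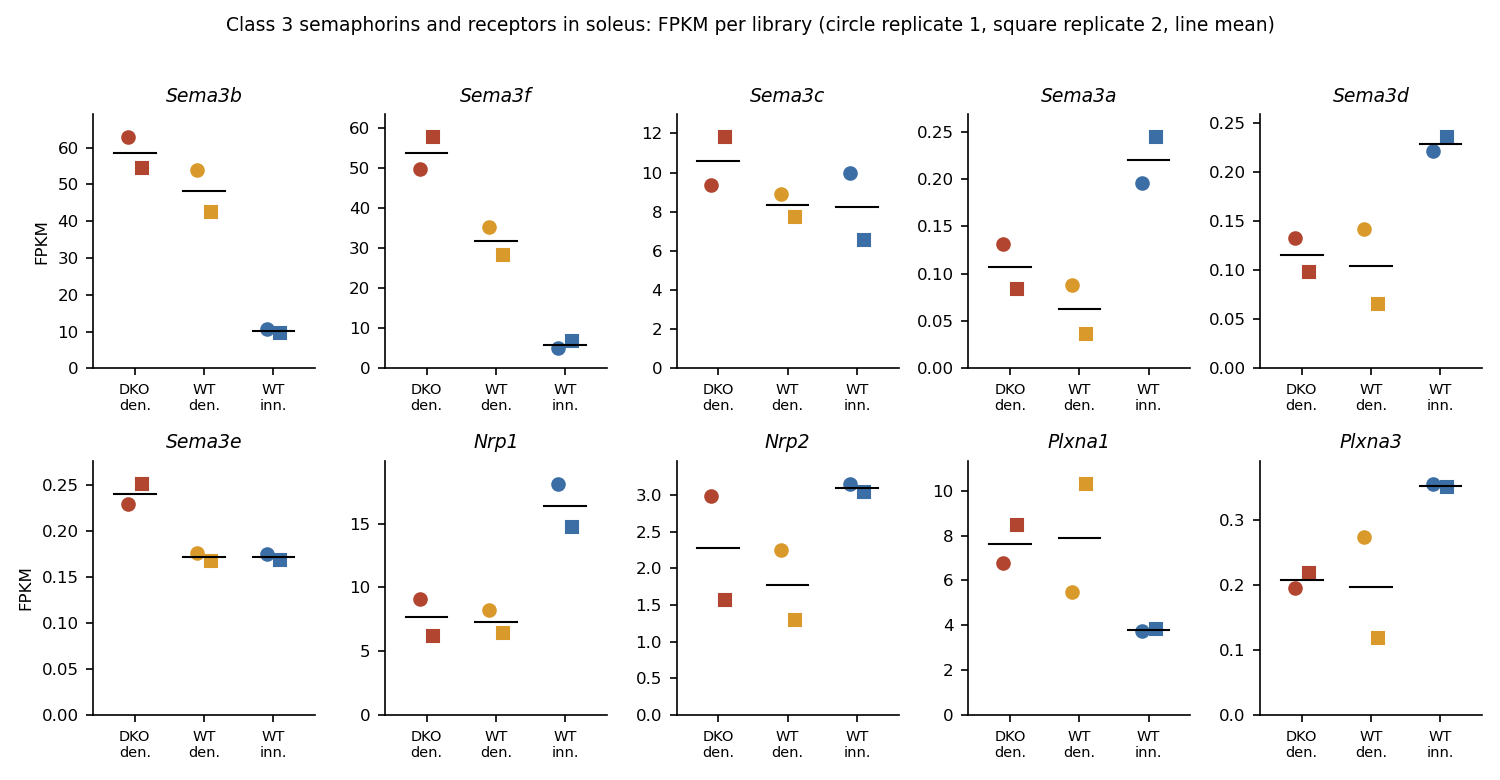
FPKM (y axis, linear from 0, a scale of its own in each panel) of the 10 genes in the 2 libraries of denervated DKO-labelled, denervated WT and innervated WT soleus, with circles for replicate 1, squares for replicate 2 and lines for the means. Sema3b and Sema3f lay at 28.4 to 62.8 FPKM in the 4 denervated libraries and at 5.01 to 10.7 in the innervated ones, whereas Nrp1 lay at 6.21 to 9.1 FPKM in the denervated and at 14.7 to 18.1 FPKM in the innervated libraries.

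Sema3b, a ligand that both neuropilins bind, had the highest mean FPKM of the 10 transcripts in both denervated groups. In DKO-labelled muscle it was not apart from Sema3f, which was the higher of them in replicate 2. Sema3b had 62.8 and 54.5 FPKM in DKO-labelled denervated muscle, 53.9 and 42.6 FPKM in denervated WT muscle, and 10.7 and 9.6 FPKM in innervated WT muscle. All 4 denervated libraries lay far above both innervated ones, and both DKO-labelled libraries lay just above both denervated WT ones. The change in denervated over innervated WT muscle was 2.34 ± 0.18, or 5.05-fold higher (edgeR adjusted p = 0.00193). Set against innervated WT, DKO-labelled muscle gave 2.67 ± 0.19, or 6.37-fold higher (adjusted p = 0.00102). The difference between DKO-labelled and WT denervated muscle was 0.34 ± 0.17 (95% interval -0.08 to 0.75, adjusted p = 0.918). The sample numbers of the libraries fall into 2 runs of consecutive numbers with 1 library of each group in each, and within these runs the change on denervation in WT was 2.40 and 2.25.

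Sema3f, the ligand of Nrp2 and a repellent of sympathetic and other axons, was called higher in the same comparisons. Its levels were 49.9 and 57.7 FPKM in DKO-labelled denervated muscle, 35.3 and 28.4 FPKM in denervated WT muscle, and 5.01 and 6.8 FPKM in innervated WT muscle. The groups did not overlap in any pair, and the DKO-labelled libraries were the highest. Denervated over innervated WT muscle gave 2.52 ± 0.22, or 5.75-fold higher (edgeR adjusted p = 0.00225), with 2.89 and 2.16 within the runs. DKO-labelled over innervated WT muscle gave 3.34 ± 0.22, or 10.1-fold higher (adjusted p = 0.000968). Of the 6 tested genes Sema3f had the smallest p between the denervated genotypes, with a difference of 0.81 ± 0.2 (95% interval 0.32 to 1.3), or 1.76-fold higher in DKO-labelled muscle. Both DKO-labelled libraries lay above both WT ones, but the unadjusted p of 0.00605 became 0.438 after edgeR's adjustment over all genes, so it was not called. Within the runs this difference was 0.55 and 1.08, and over the alternatives tried its adjusted p lay between 0.0573 and 0.984.

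Sema3c, a ligand known from outflow tract and vessel development, was not called in any comparison. It had 9.38 and 11.8 FPKM in DKO-labelled denervated muscle, 8.91 and 7.75 FPKM in denervated WT muscle, and 9.96 and 6.56 FPKM in innervated WT muscle. The innervated libraries spanned the denervated WT ones, and the change between them was 0.02 ± 0.24 (95% interval -0.56 to 0.6, edgeR adjusted p = 0.959). The sign of this value turned under several alternatives. DKO-labelled over denervated WT muscle gave 0.29 ± 0.24 (adjusted p = 0.97), and DKO-labelled over innervated WT muscle gave 0.31 ± 0.24 (adjusted p = 0.363).

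Sema3a, Sema3d and Sema3e were near the limit of detection, with at most 0.251 FPKM in any library, and did not pass the filter. Sema3a, the first of these cues to be known as a collapser of growth cones, had 0.131 and 0.0836 FPKM in DKO-labelled denervated muscle, 0.088 and 0.0368 FPKM in denervated WT muscle, and 0.196 and 0.244 FPKM in innervated WT muscle. These levels rest on sums of 61, 47 and 93 fragments over the libraries of those groups. Both denervated groups lay below the innervated one. In a fit of 18234 genes without the filter, the denervated WT level was 3.29-fold lower than the innervated one (-1.72 ± 0.52, edgeR adjusted p = 0.0347). That call was lost when either DKO-labelled library, innervated WT library or denervated WT replicate 2 was left out, with values between -1.87 and -1.27.

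Sema3d, a cue of cardiac and neural crest development, had 0.133 and 0.0976 FPKM in DKO-labelled denervated muscle, 0.142 and 0.0657 FPKM in denervated WT muscle, and 0.221 and 0.235 FPKM in innervated WT muscle. Its denervated libraries were all below the innervated ones, and the fit without the filter gave -1.06 ± 0.46 for denervated over innervated WT muscle (edgeR adjusted p = 0.124). It was called without denervated WT replicate 1, where the value was -1.68. Sema3e, the ligand of Plxnd1, had 0.229 and 0.251 FPKM in DKO-labelled denervated muscle, 0.176 and 0.167 FPKM in denervated WT muscle, and 0.175 and 0.168 FPKM in innervated WT muscle. The WT groups overlapped (0.06 ± 0.37, adjusted p = 0.938), and both DKO-labelled libraries were higher without a call (0.42 ± 0.36 over denervated WT, adjusted p = 0.98).

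Summed over the 6 ligands, the level was 123 and 124 FPKM in DKO-labelled denervated muscle, 98.5 and 79.1 FPKM in denervated WT muscle, and 26.3 and 23.6 FPKM in innervated WT muscle. Sema3b and Sema3f together made up 91.9% and 90.2% of that sum in the DKO-labelled libraries, 90.5% and 89.9% in those of denervated WT and 59.8% and 69.5% in those of innervated WT muscle. The share of Sema3c was 7.65% and 9.46% in the DKO-labelled libraries, 9.04% and 9.8% in those of denervated WT and 37.9% and 27.8% in those of innervated WT muscle. Per length of transcript, the sum of these 6 ligands in denervated muscle was thus almost all Sema3b and Sema3f, and in innervated muscle it was a mixture with Sema3c. The sum leaves out the class 3 ligand Sema3g, which was not among the 10 genes. Sema3g had 3.34 and 1.77 FPKM in DKO-labelled denervated, 2.32 and 2.15 FPKM in denervated WT and 3.66 and 4.96 FPKM in innervated WT muscle. The FPKM of Sema3f divided by that of Sema3b was 0.794 and 1.06 for the DKO-labelled libraries, 0.654 and 0.666 for denervated WT and 0.469 and 0.709 for innervated WT, so the WT groups overlapped in it and the DKO-labelled libraries were the highest.

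**Figure D2:**
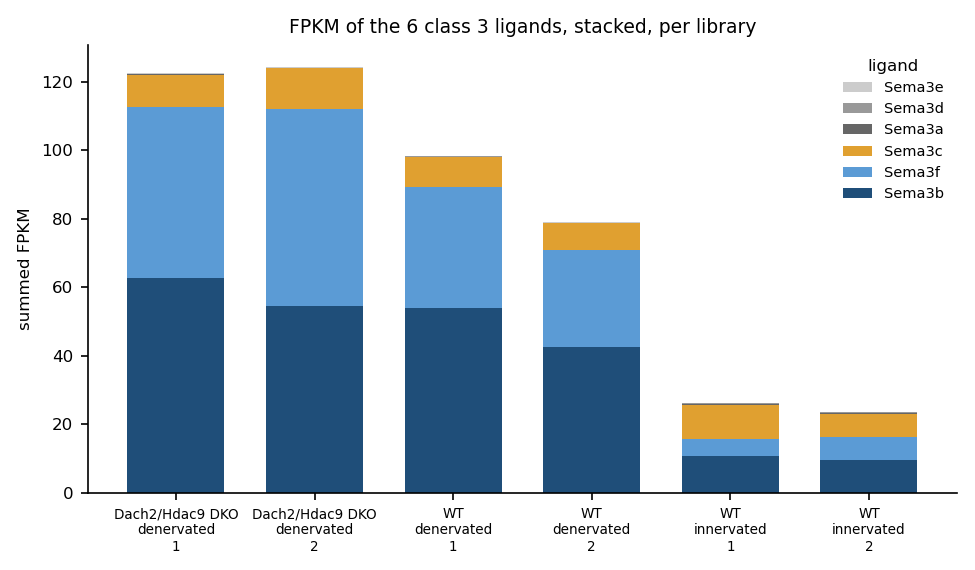
Stacked FPKM (y axis, linear from 0) of the 6 class 3 ligands in each library of denervated DKO-labelled, denervated WT and innervated WT soleus. The summed bar is 79.1 to 124 FPKM in the denervated libraries and 23.6 to 26.3 in the innervated ones, and Sema3b and Sema3f fill 89.9% to 91.9% of the denervated bars.

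Both ligand genes that rose lie on chromosome 9 (mm9, as in the files). Sema3b spans 107500445 to 107511572 and Sema3f spans 107583832 to 107612806, with 72.3 kb between them. The tables list 3 genes in that interval, of which 2 were tested and none was called for denervated over innervated WT muscle. These and the flanking genes were looked up because of their position, after the values of Sema3b and Sema3f were known. Gnai2, a G protein subunit, gave 0.54 ± 0.21 (edgeR adjusted p = 0.0928) and Slc38a3, a glutamine transporter, gave -0.44 ± 0.18 (adjusted p = 0.107). Without denervated WT replicate 2 both were called, at 0.78 and -0.67, as was Gnai2 with library totals (0.81) and Slc38a3 with upper quartile scaling (-0.51). Past Sema3f the RNA-binding protein gene Rbm5 gave -0.01 ± 0.14 (adjusted p = 0.977). BY080835, a transcript that ends 1039 bases before the start coordinate of Sema3b, went the other way: it had 4.97 and 2.79 FPKM in DKO-labelled denervated muscle, 5.52 and 1.91 FPKM in denervated WT muscle, and 29.4 and 33.8 FPKM in innervated WT muscle (-2.98 ± 0.52, adjusted p = 0.0105). That call was lost without either innervated WT library, at -3.08 and -2.89. The strand setting of the counting is not given, so reads of overlapping or antisense transcripts cannot be told apart. The other 4 ligand genes lie on chromosome 5 within 4.85 Mb, and none of them was called higher.

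**Figure D3:**
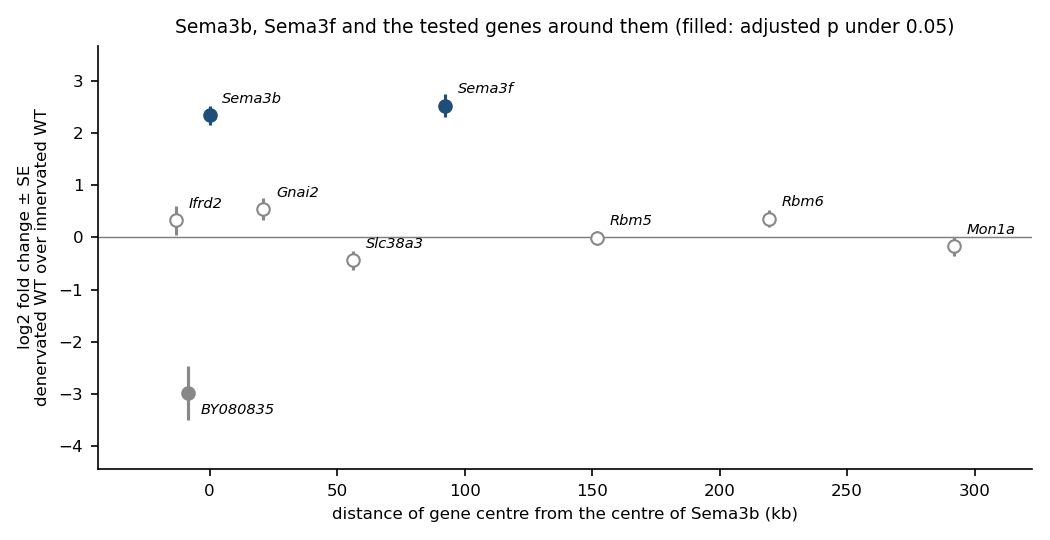
Log2 fold change ± SE of denervated over innervated WT soleus (y axis) against the distance of each gene's centre from the centre of Sema3b in kb (x axis), for Sema3b, Sema3f (blue) and the tested genes around them (grey), filled where the adjusted p was under 0.05. Sema3b (2.34) and Sema3f (2.52) stand above the genes between them (0.54 and -0.44), and BY080835 lies at -2.98.

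Of the neuropilins, Nrp1 fell after denervation. This receptor of Sema3a and co-receptor of VEGF on endothelium had 9.1 and 6.21 FPKM in DKO-labelled denervated muscle, 8.2 and 6.42 FPKM in denervated WT muscle, and 18.1 and 14.7 FPKM in innervated WT muscle. No denervated library reached the lower innervated one, and the genotypes overlapped. The change was -1.13 ± 0.24, or 2.19-fold lower, in denervated over innervated WT muscle (edgeR adjusted p = 0.0179), and -1.12 and -1.15 within the runs. In DKO-labelled over innervated WT muscle it was -1.1 ± 0.24, or 2.14-fold lower (adjusted p = 0.017). Between the denervated genotypes it was 0.03 ± 0.23 (95% interval -0.53 to 0.59, adjusted p = 0.998). The first call was lost without innervated WT replicate 1 (-0.97) or replicate 2 (-1.28), and the second without innervated WT replicate 1 (-0.94), innervated WT replicate 2 (-1.25) or DKO-labelled replicate 2 (-0.86). In whole muscle, fewer cells that express a gene and less of its RNA per cell cannot be told apart.

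Nrp2, the receptor of Sema3f and Sema3b, had 2.99 and 1.57 FPKM in DKO-labelled denervated muscle, 2.25 and 1.3 FPKM in denervated WT muscle, and 3.15 and 3.04 FPKM in innervated WT muscle. Every denervated library was below the innervated ones, but the denervated libraries of each genotype lay far apart. The change was -0.76 ± 0.36 in denervated over innervated WT muscle (95% interval -1.63 to 0.1, edgeR adjusted p = 0.151). It was called without denervated WT replicate 1, where it was -1.21. DKO-labelled over innervated WT muscle gave -0.39 (adjusted p = 0.44), and DKO-labelled over denervated WT muscle gave 0.38 ± 0.36 (adjusted p = 0.972).

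Promoter sequences were looked up because Myog, a series title gene, encodes a factor that binds E-boxes (CANNTG). Myog had 212 and 328 FPKM in DKO-labelled denervated, 124 and 418 FPKM in denervated WT and 8.02 and 7.32 FPKM in innervated WT muscle. RefSeq promoters (build GRCm38.p6, 250 bases before the start) were matched for 7 of the 10 genes, which leaves Sema3b, Sema3f and Plxna1 without one. The 2 shown are those of Nrp1, the matched gene called after the filter, and of Sema3c, the best expressed matched gene not called. Both are given 5′ to 3′ on the plus strand with CANNTG in capitals. Sema3a, a matched gene called only in the fit without the filter, is not shown. Nrp1 is at chr8:128358823-128359072 and Sema3c at chr5:17574566-17574815.
Nrp1: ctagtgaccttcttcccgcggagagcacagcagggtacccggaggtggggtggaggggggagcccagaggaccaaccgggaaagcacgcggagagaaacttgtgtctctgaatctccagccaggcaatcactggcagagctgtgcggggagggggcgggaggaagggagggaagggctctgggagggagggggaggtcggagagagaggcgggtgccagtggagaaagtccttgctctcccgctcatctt
Sema3c: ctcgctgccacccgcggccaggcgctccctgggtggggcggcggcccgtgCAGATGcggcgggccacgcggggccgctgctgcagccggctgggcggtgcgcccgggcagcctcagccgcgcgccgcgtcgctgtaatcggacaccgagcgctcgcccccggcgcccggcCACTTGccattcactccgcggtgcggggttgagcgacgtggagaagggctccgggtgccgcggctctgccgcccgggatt
The Sema3c window held 2 copies of CANNTG, whose reverse complement is again CANNTG, and the Nrp1 window held 0. Among the matched genes 4 held at least 1 copy (Sema3a, Sema3c, Sema3d and Sema3e) and 3 held none (Nrp1, Nrp2 and Plxna3), and 66.2% of all 32851 promoters in the table held at least 1. A match is a run of letters in this window and says nothing about binding.

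Plxna1, an A plexin that signals for Sema3a with Nrp1, had 6.78 and 8.46 FPKM in DKO-labelled denervated muscle, 5.47 and 10.3 FPKM in denervated WT muscle, and 3.75 and 3.84 FPKM in innervated WT muscle. All denervated libraries were above the innervated ones, and the denervated WT pair was the most spread. The change was 1.15 ± 0.3, or 2.22-fold higher, in denervated over innervated WT muscle (edgeR adjusted p = 0.0341), with 0.63 and 1.52 within the runs. In DKO-labelled over innervated WT muscle it was 1.15 ± 0.3 (adjusted p = 0.0319), and between the denervated genotypes it was 0.00 ± 0.3 (95% interval -0.71 to 0.72, adjusted p = 1.0). The call in WT was near the threshold: it was lost in the limma fits (0.83 to 0.96), with only the 4 WT libraries (1.15), and without innervated WT replicate 1 (1.14), innervated WT replicate 2 (1.16), denervated WT replicate 2 (0.62), DKO-labelled replicate 1 (1.15) or DKO-labelled replicate 2 (1.15). The call in DKO-labelled muscle was lost in the limma fits (0.84 to 0.98) and without innervated WT replicate 1 (1.14), innervated WT replicate 2 (1.16), DKO-labelled replicate 1 (1.31) or DKO-labelled replicate 2 (0.97).

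Plxna3, the A plexin that signals for Sema3f with Nrp2, was near the limit of detection. It had 0.196 and 0.219 FPKM in DKO-labelled denervated muscle, 0.275 and 0.119 FPKM in denervated WT muscle, and 0.356 and 0.351 FPKM in innervated WT muscle. All denervated libraries were below the innervated ones. Without the filter, the change was -0.69 ± 0.42 in denervated over innervated WT muscle (edgeR adjusted p = 0.281) and -0.58 in DKO-labelled over innervated WT muscle (adjusted p = 0.373), and it was called in WT without denervated WT replicate 1 (-1.37).

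The order of the 10 genes by mean FPKM differed between innervated and denervated muscle. In innervated WT muscle Nrp1 came first with 16.4 ± 2.39 FPKM (SD, n = 2 here and below), apart from Sema3b (10.1 ± 0.768), Sema3c (8.26 ± 2.41) and Sema3f (5.91 ± 1.26), whose neighbours did not differ beyond their spread. In denervated WT muscle Sema3b (48.3 ± 7.99) and Sema3f (31.8 ± 4.88) came first and apart from each other, followed by Sema3c, Plxna1 and Nrp1 at 8.33 ± 0.82, 7.87 ± 3.38 and 7.31 ± 1.26, which did not differ beyond their spread. In DKO-labelled denervated muscle Sema3b (58.7 ± 5.85) and Sema3f (53.8 ± 5.55) were not apart. Sema3c followed at 10.6 ± 1.69 FPKM, above Nrp1 (7.65 ± 2.04) and Plxna1 (7.62 ± 1.19). Sema3a, Sema3d, Sema3e and Plxna3 filled the last places in every group.

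**Figure D4:**
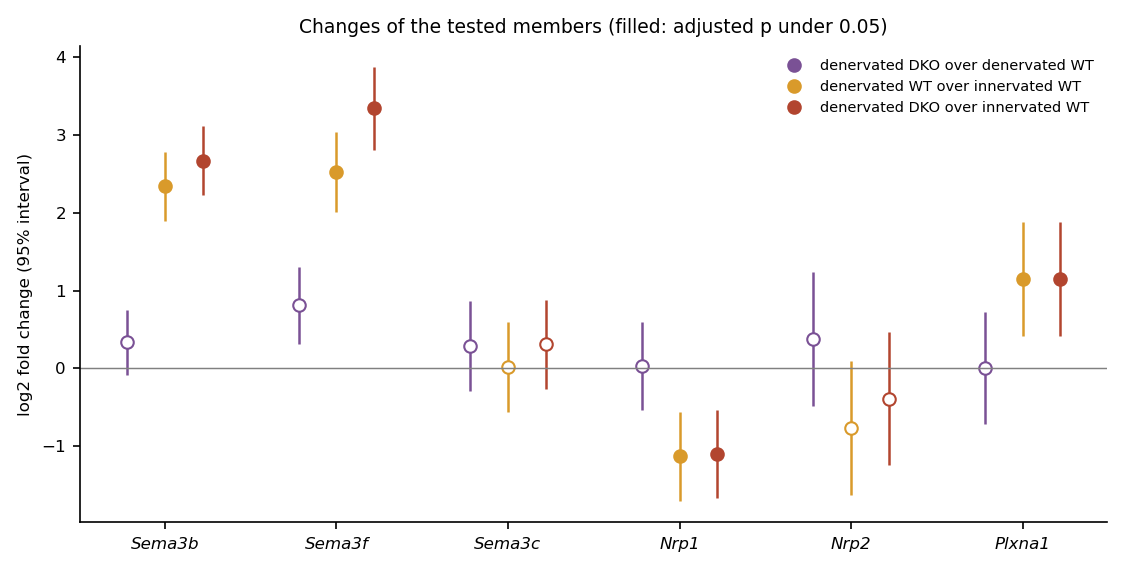
Log2 fold change with its 95% interval (y axis) of the 6 tested genes in denervated DKO over denervated WT (purple), denervated WT over innervated WT (yellow) and denervated DKO over innervated WT (red), filled where edgeR's adjusted p was under 0.05. Sema3b, Sema3f and Plxna1 lie above 0 and Nrp1 below 0 in both comparisons with innervated muscle, at 2.34, 2.52, 1.15 and -1.13 in WT, and no purple point is filled.

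The genes whose TMM-scaled log2 counts ran most nearly parallel to each called member over the 6 libraries are given as a description, since the libraries share their groups. For Sema3b these were Ctnna1 (Pearson r = 0.9992), Tmem194 (0.9984) and Ngfr (0.9975). For Sema3f they were Anxa11 (0.9988), Pold3 (0.9965) and Sugp1 (0.9964). For Nrp1 they were Gucy1a3 (0.9984), Chst12 (0.9972) and Ctdspl (0.9971), and for Plxna1 they were Pno1 (0.999), Tmed2 (0.9984) and Pphln1 (0.9983). Between 553 and 883 genes had an r above 0.95 with each of the 4.

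Other components of the pathway at the cell surface were measured for 8 genes, of which 5 passed the filter. In denervated over innervated WT muscle 1 of the 5 was called higher (Nrcam) and 1 lower (Plxna4). Each of these passed the filter only through the groups where it was high. Over all tested genes 14.4% were called higher and 14.3% lower, so these counts say little about the list. Its median change was -0.2. With library totals 2 of the 5 were called higher and 0 lower, beside 3331 and 1144 of all 12247 tested genes. Nrcam, an adhesion molecule that joins Nrp2 in the response to Sema3b and Sema3f, had 13.7 and 17.1 FPKM in DKO-labelled denervated muscle, 16.6 and 4.3 FPKM in denervated WT muscle, and 0.21 and 0.171 FPKM in innervated WT muscle. It was almost absent from innervated muscle and the denervated WT libraries lay far apart. The change was 5.8 ± 0.7, or 55.8-fold higher, in denervated over innervated WT muscle (edgeR adjusted p = 0.00445). Without denervated WT replicate 1 it was 4.51, without denervated WT replicate 2 it was 6.46, and without innervated WT replicate 2 the call was lost at 5.67. In DKO-labelled over innervated WT muscle it was 6.34 ± 0.71 (adjusted p = 0.00272).

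Plxna4, a further A plexin for Sema3a, had 0.594 and 0.198 FPKM in DKO-labelled denervated muscle, 0.398 and 0.263 FPKM in denervated WT muscle, and 1.05 and 1.54 FPKM in innervated WT muscle. It fell 3.71-fold in denervated over innervated WT muscle (-1.89 ± 0.52, edgeR adjusted p = 0.0384), a call lost without innervated WT replicate 1 (-2.14), innervated WT replicate 2 (-1.6) or denervated WT replicate 2 (-1.63) and under library totals (-1.61). Sema3g, a class 3 ligand of vessels that was not among the 10 genes, gave -0.85 ± 0.33 (adjusted p = 0.0925). Plxna2 gave 0.29 ± 0.16 (adjusted p = 0.215) and Plxnd1, the receptor of Sema3e, gave -0.2 ± 0.18 (adjusted p = 0.439). The adhesion molecules L1cam, Chl1 and Cntn2, which take part in the response of axons to Sema3a, were below the filter. Without it, L1cam gave -0.94 ± 0.41 (adjusted p = 0.122), Chl1 1.8 ± 0.6 (adjusted p = 0.0516) and Cntn2 2.68 ± 0.63 (adjusted p = 0.0115), the last with 0.271 and 0.117 FPKM in DKO-labelled denervated, 0.0622 and 0.117 in denervated WT and 0.0132 and 0.0175 in innervated WT muscle. In DKO-labelled over innervated WT muscle Chl1 (1.92 ± 0.6, adjusted p = 0.0385) and Cntn2 (3.82 ± 0.63, adjusted p = 0.0014) were called higher in that fit, and Plxna4 was not called (-1.63 ± 0.52, adjusted p = 0.0544).

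Inside the cell, 26 of 27 listed genes of semaphorin signalling were matched and 23 were tested. In denervated over innervated WT muscle 6 of the 23 were called higher and 0 lower, beside 14.4% and 14.3% of all tested genes, with a median of 0.41 against 0.00. The highest called change was that of Cdk5r1, the activator of the kinase Cdk5 that phosphorylates collapsin response mediators. This gene passed the filter only through the denervated groups. It had 1.42 and 1.18 FPKM in DKO-labelled denervated muscle, 1.62 and 1.69 FPKM in denervated WT muscle, and 0.434 and 0.234 FPKM in innervated WT muscle, and the denervated groups were 2.34 ± 0.35 above innervated muscle in WT (edgeR adjusted p = 0.00701). Pak1, a kinase under Rac that acts on actin turnover, rose 4.0-fold (adjusted p = 0.0124), with 9.23 and 7.65 FPKM in DKO-labelled, 6.51 and 10.8 FPKM in denervated WT and 2.88 and 1.56 FPKM in innervated WT muscle. Rras, the small GTPase that A plexins switch off, rose 2.27-fold (adjusted p = 0.0123), and Mical2, of the actin-oxidising MICAL family, rose 1.78-fold (adjusted p = 0.0192). The other 2 called genes, named after their values were seen, were Cfl1, which severs actin (0.76 ± 0.18), and Farp2, an exchange factor that A plexins bind (0.73 ± 0.18). The calls of Cdk5r1 and Pak1 were lost without innervated WT replicate 2 (1.98 and 1.63), and those of Rras and Mical2 without innervated WT replicate 1 (1.11 and 0.95) or replicate 2 (1.26 and 0.73). With library totals 13 were called higher and 0 lower, beside 3331 and 1144 of all 12247 tested genes. In DKO-labelled over innervated WT muscle 7 were called higher and 0 lower, beside 15.2% and 16.2% of all tested genes. In DKO-labelled over denervated WT muscle 0 of 23 were called, beside 0.0408% of all tested genes. Of the 23, 0 had an unadjusted p under 0.05 in edgeR, as 748 of all 12247 tested genes did.

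Class 3 semaphorins are cut by proprotein convertases, and 4 of these were tested. In denervated over innervated WT muscle Furin was called 1.84-fold higher (0.88 ± 0.16, edgeR adjusted p = 0.0116) and Pcsk6 was called 3.56-fold lower (-1.83 ± 0.24, adjusted p = 0.0057). Pcsk5 and Pcsk7 were not called, and the median of the 4 was -0.13. Over all tested genes 14.4% were called higher and 14.3% lower, so 1 of 4 each way says little about the list. Furin had 18.0 and 18.5 FPKM in DKO-labelled denervated muscle, 16.8 and 20.5 FPKM in denervated WT muscle, and 10.5 and 11.4 FPKM in innervated WT muscle. Pcsk6 had 2.26 and 2.24 FPKM in DKO-labelled denervated muscle, 3.24 and 2.04 FPKM in denervated WT muscle, and 10.4 and 9.43 FPKM in innervated WT muscle. Neither gene's groups overlapped between denervated and innervated muscle, and both calls were lost without innervated WT replicate 1 (0.83 and -1.75) or replicate 2 (0.93 and -1.9).

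The neuropilins' other ligands, the VEGFs, and their receptors gave 8 tested genes. In denervated over innervated WT muscle 3 were called lower and 0 higher, beside 14.3% and 14.4% of all tested genes. Their median was -1.11, against 0.00 for all tested genes. Vegfa had 19.0 and 20.0 FPKM in DKO-labelled denervated muscle, 26.3 and 34.5 FPKM in denervated WT muscle, and 111 and 123 FPKM in innervated WT muscle. It fell 3.72-fold in denervated WT muscle (edgeR adjusted p = 0.00305), and Vegfb fell 3.02-fold (adjusted p = 0.00251). Kdr, the main signalling receptor of Vegfa on endothelium, had 3.37 and 2.28 FPKM in DKO-labelled denervated muscle, 2.94 and 3.17 FPKM in denervated WT muscle, and 10.9 and 12.0 FPKM in innervated WT muscle. It fell 3.6-fold in denervated WT muscle (adjusted p = 0.00408), a call lost without innervated WT replicate 2 (-1.78). Over innervated WT muscle, DKO-labelled muscle had 5 of the 8 called lower and 0 higher, beside 16.2% and 15.2% of all tested genes. With library totals 3 of the 8 were called lower and 0 higher in denervated WT muscle, beside 1144 and 3331 of all 12247 tested genes.

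Markers of endothelium moved with Nrp1. Of the 10 listed, 8 were called lower and 0 higher in denervated over innervated WT muscle, beside 14.3% and 14.4% of all tested genes, with a median of -1.05 and none at 0 in any library. With library totals 6 of the 10 were called lower and 0 higher, beside 1144 and 3331 of all 12247 tested genes. Their summed level was 70.9 to 108 FPKM in DKO-labelled denervated, 89.8 to 99.5 in denervated WT and 191 to 227 in innervated WT muscle. Egfl7 and Pecam1, the most abundant of them, gave -1.2 ± 0.18 (edgeR adjusted p = 0.00737) and -0.92 ± 0.21 (adjusted p = 0.0224). The part of these cells in the change of Nrp1 was not tested. Other lists moved too: for pericyte and smooth muscle markers 5 of 7 were called lower, for fibro-adipogenic progenitors 4 of 10, for muscle fibres 5 of 9 and for perineurium and tendon 4 of 9 with 2 higher. With library totals the numbers called lower were 4 of 7, 2 of 10, 4 of 9 and 3 of 9 in these lists. Of the Schwann cell markers 6 of 11 were called lower, and 1, Ngfr, the neurotrophin receptor of denervated Schwann cells, was called 4.35-fold higher (adjusted p = 0.00304). With library totals 5 of the 11 were called lower and 3 higher. Their summed level was 50.3 to 53.4 FPKM in DKO-labelled denervated, 55.6 to 56.9 in denervated WT and 112 to 114 in innervated WT muscle, with none at 0. Pmp22 and Mbp, the most abundant of them, were lower after denervation. Pmp22 had 20.1 and 22.8 FPKM in denervated WT and 45.6 and 46.6 FPKM in innervated WT muscle. Mbp had 10.1 and 10.7 FPKM against 23.0 and 23.7 FPKM. Ngfr had 3.43 and 2.99 FPKM in DKO-labelled denervated, 2.58 and 2.45 FPKM in denervated WT and 0.642 and 0.596 FPKM in innervated WT muscle. It was singled out as a gene parallel to Sema3b, and 630 genes had an r above 0.95 with Sema3b. Of satellite cell markers 1 of 9 was called higher and 3 lower (2 higher and 0 lower with library totals), and of macrophage markers 1 of 10 was called higher and 0 lower. Their part in the rise of Sema3b and Sema3f was not tested.

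**Figure D5:**
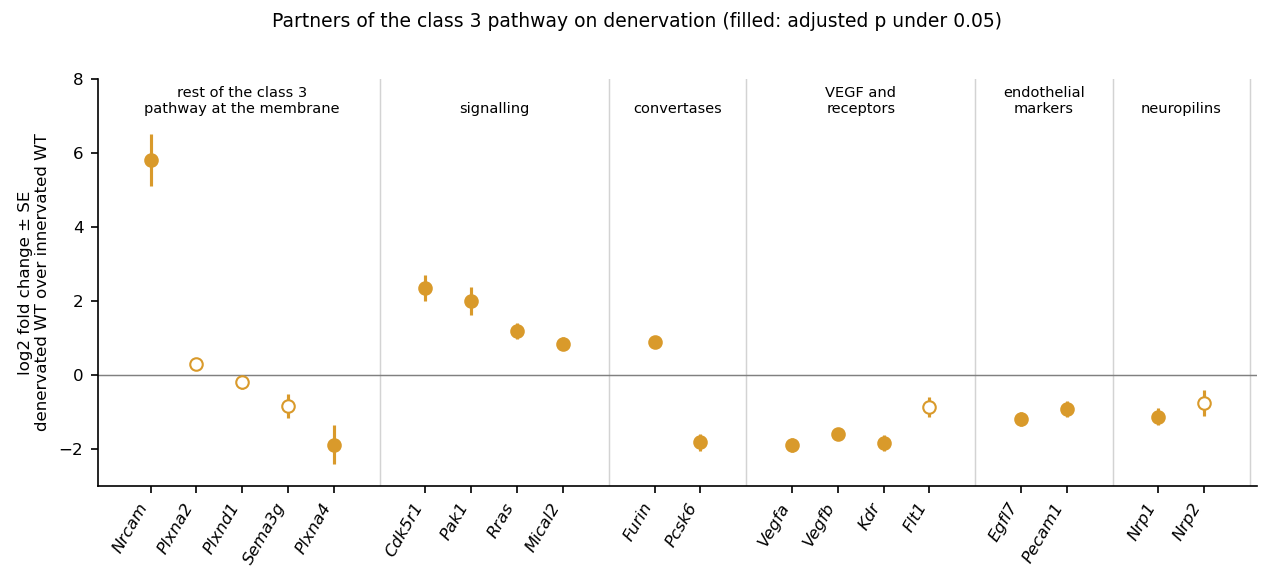
Log2 fold change ± SE of denervated over innervated WT soleus (y axis) for genes grouped by role in or beside the class 3 pathway, filled where edgeR's adjusted p was under 0.05. Nrcam stands highest at 5.8, the named signalling genes and Furin lie above 0, and Vegfa, Vegfb, Kdr, Egfl7, Pecam1 and Nrp1 lie below 0.

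Other families of guidance genes were set beside the same shares of all tested genes, 14.4% called higher and 14.3% called lower in denervated over innervated WT muscle. With library totals 3331 of all 12247 tested genes were called higher and 1144 lower. Of 9 tested semaphorins of other classes 2 were called lower and 0 higher. Sema6c, a transmembrane semaphorin, had 5.54 and 2.79 FPKM in DKO-labelled denervated muscle, 5.02 and 0.946 FPKM in denervated WT muscle, and 27.8 and 25.4 FPKM in innervated WT muscle, a fall of 8.34-fold in WT (-3.06 ± 0.73, edgeR adjusted p = 0.0259). It was -4.73 without denervated WT replicate 1 and -2.32 without denervated WT replicate 2, and the call was lost without innervated WT replicate 1 (-2.99) or replicate 2 (-3.13). Sema4c, another transmembrane semaphorin, gave -0.94 ± 0.2 (adjusted p = 0.019), lost without innervated WT replicate 1 (-0.83) or replicate 2 (-1.04) and with library totals (-0.68), which gave 2 higher and 1 lower among the 9. Sema6a (1.68 ± 0.29) and Sema4d (0.82 ± 0.18) were also called higher in DKO-labelled over innervated WT muscle. Of the plexins of classes B and C 1, Plxnb2, passed the filter and gave -0.29 ± 0.37 (adjusted p = 0.575). Of 15 tested cues and receptors of other guidance families 3 were called lower and 0 higher (2 and 1 with library totals): the repulsive guidance molecules Rgma (-1.77 ± 0.34) and Rgmb (-0.58 ± 0.17) and the endothelial receptor Robo4 (-1.28 ± 0.27). The calls of Rgma, Rgmb and Robo4 were lost without innervated WT replicate 1 (-1.8, -0.58 and -1.51) or replicate 2 (-1.74, -0.58 and -1.0). That of Rgmb was also lost with library totals (-0.32), without the filter (-0.52), with only the 4 WT libraries (-0.58) and without denervated WT replicate 2 (-0.46), DKO-labelled replicate 1 (-0.58) or DKO-labelled replicate 2 (-0.58). Among genes of these families below the filter, named after their values were seen, the fit without it called Sema4f 7.7-fold higher (2.94 ± 0.47, adjusted p = 0.00145) and called Sema5a (-1.19 ± 0.32), Plxnb3 (-1.85 ± 0.39), Robo1 (-1.51 ± 0.36), Epha4 (-1.39 ± 0.35) and Ephb6 (-1.61 ± 0.5) lower in denervated over innervated WT muscle. In DKO-labelled over denervated WT muscle 0 genes were called in each of the pathway and marker lists. Over all tested genes 0.0408% were called there, so these counts say little about the lists.

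For scale, 8 of 11 synapse and denervation genes were called higher in denervated over innervated WT muscle and 2 lower. The shares over all tested genes were 14.4% and 14.3%. The median of the 11 genes was 3.11, against 0.00 for all tested genes. Chrnd and Chrna1, subunits of the acetylcholine receptor, gave 4.26 ± 0.28 (edgeR adjusted p = 0.00176) and 3.43 ± 0.26 (adjusted p = 0.00185), and Chrnb1 gave 2.69 ± 0.18 (adjusted p = 0.00176). Gdf5, a growth factor of the series title, had 44.6 and 52.5 FPKM in DKO-labelled denervated muscle, 21.8 and 34.3 FPKM in denervated WT muscle, and 0.325 and 1.14 FPKM in innervated WT muscle. In denervated over innervated WT muscle the log2 changes of Sema3b (2.34) and Sema3f (2.52) were thus below those of Chrnd and Chrna1. The value of Chrnb1 was nearer, and the SE ranges of Chrnb1 and Sema3f (± 0.22) overlapped. Of the other subunits, Chrng had 198 and 63.5 FPKM in denervated WT and 1.83 and 0.775 FPKM in innervated WT muscle. Chrne went the other way, with 4.03 and 2.59 FPKM in denervated WT and 7.44 and 9.7 FPKM in innervated WT muscle.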

How the data were processed

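RNA-seq of mouse soleus was read from 6 deposited tables, 1 per library, and grouped by sample title. Tools in the submitters' processing notes are Cuffdiff 2.0.2, TopHat2 2.0.3, Bowtie2 2.0.0.7, Trim Galore 0.2.1 and CASAVA 1.8.2, with build mm9. Which step each tool made is not stated, nor is strand. The deposited tables hold, per the file headers, FPKM made by the authors, a signal of externally scaled fragments, and raw fragments, which are estimated counts. The external factor was 0.6643 to 1.5641, so FPKM is not a share of the library's fragments. Each table lists its entries 3 or more times in 65415 lines, which left 21792 distinct entries with 21572 symbols, and entries of 1 symbol were summed.

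Counts were rounded to whole numbers and fitted genome-wide in edgeR 4.0.16 (R 4.3.3) with the quasi-likelihood test, TMM scaling, all 6 libraries and 3 group means, for genes of mean FPKM of at least 0.5. P-values were two-sided with Benjamini-Hochberg adjustment over all tested genes, and the SE is the log2 fold change divided by the square root of F. The common coefficient of biological variation was 0.222, with 3 residual degrees of freedom, so small changes may be missed. Members below the filter were read from the same fit without it (genes of at least 1 fragment). Alternatives were other scalings and filters, DESeq2 1.42.0, limma 3.58.1 on log2(FPKM + 0.1, 0.5 or 1), a block for the run of sample numbers and leaving out each library. The test was also run on counts simulated with known changes, using the trend of spread from the same fit. Such counts lack an outlying library, so nothing is concluded from them here.

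The members and lists were chosen with earlier results of these data known. All 10 members are described; of each other pathway list every called gene is named, or the 4 of smallest p where more than 4 are called, and others are named where the text says so. Of the marker lists the 2 of highest mean FPKM may be named, and Ngfr was added as a gene parallel to Sema3b. Levels of neighbouring genes in an order differ where their libraries do not overlap and the gap of means exceeds the larger SD.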

Additional observations from a re-analysis of the deposited data

How the results depend on the processing

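Under every alternative tried, Sema3b and Sema3f were called higher in both denervated groups than in innervated WT muscle, and none of the 6 tested genes was called between the denervated genotypes. The numbers of genes called moved more. With library totals 3331 were higher and 1144 lower in denervated WT, and 3729 higher and 1239 lower in DKO-labelled muscle, over innervated WT. Leaving out a library gave 83 to 2610 higher and 119 to 2747 lower in denervated WT, and 245 to 2713 higher and 416 to 2812 lower in DKO-labelled muscle. Fewer libraries leave fewer degrees of freedom, and the cause of the counts that rose was not tested. Among the 6 tested genes, those called lower in denervated WT were 2 with the replicate block and 0 to 2 with a library left out, and in DKO-labelled muscle 0 to 1. Without the filter 2 of the 10 (Nrp1 and Sema3a) were called lower in denervated WT, and leaving out denervated WT replicate 1 as well brought Sema3d (-1.68) and Plxna3 (-1.37) past the threshold. Between the denervated genotypes, the genes called were 10 with DESeq2's size factors, 2 with upper quartile scaling, 3 with library totals, 181 in DESeq2, 33, 27 and 33 in limma (pseudocounts 0.5, 0.1 and 1), 60 without the filter, 2 under a filter at 2 FPKM, 0 with only the 4 libraries compared, and 0 to 119 with a library left out. The cause was not tested. No label pairs the libraries. The run of sample numbers as a replicate block left 4 genes called there and brought Nrp2 in denervated WT past the threshold (-0.83), and deviations of libraries of 1 run correlated at 0.143 to 0.426. Values near 0 changed sign: Sema3c in denervated WT with upper quartile scaling (-0.03), under the filter at 2 FPKM (-0.04) and with a library left out (-0.26 to 0.36); Plxna1 between the denervated genotypes with DESeq2's size factors (-0.02), in DESeq2 (-0.02) and without the filter (-0.0); and Plxnd1 in denervated WT with library totals (0.07). With a library left out, differences between the denervated genotypes spanned -0.38 to 0.53 for Plxna1, -0.26 to 0.27 for Nrp1, -0.13 to 0.82 for Nrp2, -0.35 to 0.72 for Sema3d (-0.14 without DKO-labelled replicate 1) and -0.34 to 0.82 for Plxna3, and Plxnb2 in denervated WT spanned -0.71 to 0.02. The fits of Sema3d and Plxna3 without the filter and with a library left out were chosen after seeing the data. With 2 libraries a group, a 95% interval of Nrp1 between the denervated genotypes (-0.53 to 0.59) still holds changes in both directions.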
